A study of Mus musculus with 13 samples.

Results

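OLIG2 is a basic helix-loop-helix transcription factor of the oligodendrocyte lineage, and its binding sites in oligodendrocyte precursor cells (OPCs) were set here against the H3K4me3 and H3K27me3 maps of the same cell type. The sites were all 7384 peaks listed for the OPC OLIG2 ChIP-Seq library, with no further filter, of 175781 peaks in all ChIP-Seq lists of the series that were used. Each peak was placed against 18200 OPC H3K4me3 peaks and 29389 OPC H3K27me3 peaks on the assembled chromosomes by overlap of at least 1 bp, by distance to the nearest mark, and by the state of the transcription start site (TSS) of its target gene. The same comparisons were then made after moving the OLIG2 list along each chromosome.

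The study followed neural stem cells (NSCs), OPCs and newly formed oligodendrocytes (NFOs) and compared OLIG2 binding, histone marks and RNA between the stages. The OPCs were taken at postnatal day 7 from the brains of C57BL/6 mice, males and females in about equal numbers, with no transgene and no treatment named. The NFOs came from the same source, while the NSCs, per the study's methods, were purchased cells from the cortex of embryonic CD-1 mice kept in culture, although their labels name C57BL/6. Stage therefore cannot be told apart from strain, age and culture where NSC lists are used. The OPCs were immunopanned on plates coated with an antibody against PDGFRα after microglia and endothelial cells had been removed on BSL-1 plates. Each list came from 1 library with no replicate, so the intervals given here cover counting error only, and no test between samples was possible. Intervals of shares and of their ratios are exact binomial, and those of medians come from the ranked values. Ranges after a value of the list moved along the chromosomes are the lowest and highest of 99 shifts. Read depth could not be read from the peak lists. For the histone libraries of every stage the antibody field of the labels names the other mark than the title does. The titles were followed: 70.5% of the peaks in the OPC list titled H3K4me3 and 9.60% of those in the list titled H3K27me3 were centred within 1 kb of a TSS.

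H3K4me3 is laid down around the start sites of active and poised genes, and H3K27me3 is the mark of Polycomb repressive complex 2 at silenced genes. Where both lie on the same nucleosomes or stretch of chromatin, the domain is called bivalent and is typical of developmental regulators in stem and precursor cells. OLIG2 binds DNA as a dimer at E-boxes, the hexamer CANNTG, and is needed both to specify OPCs and for their differentiation.

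The sequences under the peaks held a feature that bears on every comparison that follows, so some are shown first, from the GRCm38 assembly, plus strand, 5′ to 3′, with E-boxes and every run of 10 or more A or T in capitals. For each class of site by mark, the 2 peaks of highest OLIG2 fold enrichment are shown among those of at most 300 bases that touch no UTR, so the strongest peak of all, at Atg2a, is not among them. On H3K4me3 alone these were Ppp1r10, chr17:35919091-35919284, in an intron of a gene for a nuclear subunit of protein phosphatase complexes, and Hapln1, chr13:89539620-89539787, at the TSS of a gene for a protein that links hyaluronan to proteoglycans. On both marks they were Gad1, chr2:70558213-70558362, in an intron of the gene for a GABA-synthesising enzyme, and Foxd3, chr4:99661123-99661252, an intergenic site near the gene of a neural crest transcription factor. On H3K27me3 alone they were 4932438H23Rik, chr16:91097217-91097310, and Gm31314, chr5:119390008-119390108, both intergenic and named by the nearest TSS. On neither mark they were Gm16155, chr10:94428651-94428809, in an intron, and A330048O09Rik, chr13:48324169-48324334, intergenic.
Ppp1r10: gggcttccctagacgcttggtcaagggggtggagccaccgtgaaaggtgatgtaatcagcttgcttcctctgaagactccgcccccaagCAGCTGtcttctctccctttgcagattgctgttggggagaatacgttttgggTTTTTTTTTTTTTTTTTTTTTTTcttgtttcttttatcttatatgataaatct
Hapln1: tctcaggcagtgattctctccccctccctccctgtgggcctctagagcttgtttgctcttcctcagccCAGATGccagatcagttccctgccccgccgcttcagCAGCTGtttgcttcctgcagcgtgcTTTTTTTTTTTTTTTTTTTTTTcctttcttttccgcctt
Gad1: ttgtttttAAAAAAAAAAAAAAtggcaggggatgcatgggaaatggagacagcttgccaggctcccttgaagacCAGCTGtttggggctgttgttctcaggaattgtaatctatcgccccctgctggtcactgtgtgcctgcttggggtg
Foxd3: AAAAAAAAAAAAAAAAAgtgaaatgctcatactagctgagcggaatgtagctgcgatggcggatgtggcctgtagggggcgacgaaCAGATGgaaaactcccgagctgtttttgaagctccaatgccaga
4932438H23Rik: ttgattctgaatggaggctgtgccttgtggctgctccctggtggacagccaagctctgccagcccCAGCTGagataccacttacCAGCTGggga
Gm31314: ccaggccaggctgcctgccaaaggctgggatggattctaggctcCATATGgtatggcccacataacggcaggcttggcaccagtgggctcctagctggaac
Gm16155: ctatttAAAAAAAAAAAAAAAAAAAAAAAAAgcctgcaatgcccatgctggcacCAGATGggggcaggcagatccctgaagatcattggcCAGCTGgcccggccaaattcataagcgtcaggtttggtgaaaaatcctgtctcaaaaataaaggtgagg
A330048O09Rik: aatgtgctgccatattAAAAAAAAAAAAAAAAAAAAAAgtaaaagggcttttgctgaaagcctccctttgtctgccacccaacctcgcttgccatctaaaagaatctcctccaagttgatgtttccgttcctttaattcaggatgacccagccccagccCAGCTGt

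The strongest site of each class without such a run is shown for contrast, by the same rule, and this set was added after the values were seen. Lsamp, chr16:42190311-42190376, was an intergenic site on H3K4me3 alone whose nearest gene encodes a neuronal cell adhesion protein. Gm30074, chr3:52179731-52179960, lay on both marks within 1 kb of a TSS. Tead1, chr7:112760946-112761175, lay on H3K27me3 alone in an intron of the gene for a transcription factor of the Hippo pathway. Wwp2, chr8:107465359-107465515, lay on neither mark in an intron of a ubiquitin ligase gene. Tbx3, chr5:119679899-119680128, with a run, is shown because it lay in the third widest H3K27me3 peak that held an OLIG2 site.
Lsamp: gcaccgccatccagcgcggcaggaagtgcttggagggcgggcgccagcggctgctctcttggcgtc
Gm30074: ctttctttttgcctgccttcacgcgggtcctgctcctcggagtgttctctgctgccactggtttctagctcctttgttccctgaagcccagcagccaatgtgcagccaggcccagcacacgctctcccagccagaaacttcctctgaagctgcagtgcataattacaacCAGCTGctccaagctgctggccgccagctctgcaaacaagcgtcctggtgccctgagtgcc
Tead1: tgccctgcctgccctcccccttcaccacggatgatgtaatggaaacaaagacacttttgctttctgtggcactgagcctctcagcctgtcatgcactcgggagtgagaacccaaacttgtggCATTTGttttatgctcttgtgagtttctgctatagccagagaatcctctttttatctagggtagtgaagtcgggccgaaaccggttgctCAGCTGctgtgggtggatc
Wwp2: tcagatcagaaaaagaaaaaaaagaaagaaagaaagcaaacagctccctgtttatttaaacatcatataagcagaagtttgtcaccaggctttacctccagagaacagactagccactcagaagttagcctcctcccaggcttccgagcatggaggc
Tbx3: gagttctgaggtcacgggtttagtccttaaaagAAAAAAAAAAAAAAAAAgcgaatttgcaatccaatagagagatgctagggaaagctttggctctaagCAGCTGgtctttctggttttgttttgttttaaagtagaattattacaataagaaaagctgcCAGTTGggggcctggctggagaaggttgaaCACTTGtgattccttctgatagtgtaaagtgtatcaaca

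Most OLIG2 peaks lay beside a run of A or T. A run of 12 or more A or T stood inside 4986 of the 7384 peaks, 67.5% (95% CI 66.4 to 68.6), against 3.18% of the same windows moved by 10 kb. With the window widened by 100 bp to either side and the run shortened to 10 bases, 5815 peaks (78.8%) had a run, against 10.2% of the moved windows, and 1569 (21.2%) had none. In the narrow peaks of 4932438H23Rik and others the run stood just outside the listed interval. The NFO OLIG2 list had the same feature, with a run of 12 or more in 65.8% of 16911 peaks against 3.31% of moved windows.

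The runs had a fixed side. Within 200 bp of the peak centre, 2884 adenine runs of the plus strand lay on the lower-coordinate side and 41 on the higher, whereas 44 thymine runs lay on the lower side and 2865 on the higher. Both were densest at 40 to 60 bp from the centre, with 963 adenine and 965 thymine runs in that interval, and at 300 to 400 bp from the centre there were 111 and 131 in all. The OLIG2 libraries were made, per the study's methods, with a kit (DNA SMART ChIP-Seq) that tails single-stranded DNA with T and primes from the tail. The library kit of the histone libraries is not given in the sources used here, and the part of the runs in the peaks was not tested. The main results are therefore given for all peaks and for the peaks with and without a run of 10 or more A or T.

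**Figure D1:**
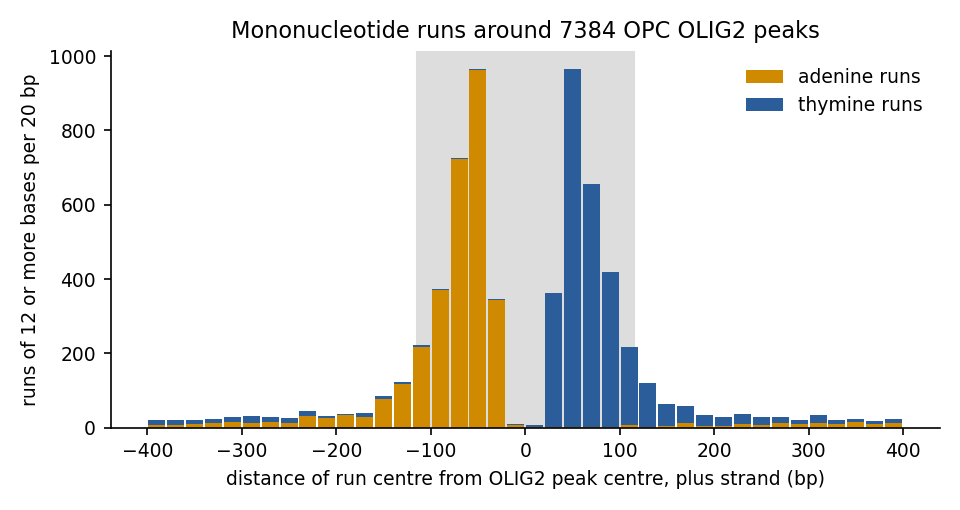
Number of runs of 12 or more adenines or thymines (plus strand) per 20 bp against the distance from the centre of the 7384 OPC OLIG2 peaks in bp, with the grey band marking the median peak width of 230 bp. Adenine runs sit on the lower-coordinate side (2884 against 41) and thymine runs on the higher side (2865 against 44).

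The histone lists differed in the same feature. Among OPC H3K27me3 peaks of 300 to 1000 bp, 40.4% held a run of 12 or more, against 8.79% of windows moved by 10 kb, while the peaks under 300 bp had 3.6% against 2.78%. Those of 1 kb or more had 41.8% against 28.4%. Among OPC H3K4me3 peaks, 14.1% of those of 300 to 1000 bp held a run against 10.1% moved, and 28.9% of those of 1 kb or more against 27.3%. In OPCs the H3K27me3 peaks of 300 bp or more thus shared the feature with the OLIG2 list, the mid-sized ones most. The H3K4me3 peaks held it closer to the level of moved windows. At the other stages lists of both marks held it. In NSCs a run stood in 87.2% to 88.4% of H3K27me3 peaks, by width class, against 3.47% to 22.1% of moved windows. It stood in 74.1% of NSC H3K4me3 peaks under 300 bp, against 3.45% of moved windows, with 54.4% against 9.02% at 300 to 1000 bp. In NFOs it stood in 34.2% of H3K4me3 peaks of 300 to 1000 bp against 10.1%, and in 19.3% of H3K27me3 peaks of that width against 8.34%.

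Of the 7384 OLIG2 peaks, 929 overlapped an H3K4me3 peak, which was 12.6% (95% CI 11.8 to 13.4). Averaged over all circular shifts of the list along its chromosomes, 76.9 peaks (1.04%) would overlap, with 51 to 96 over 99 evenly spaced shifts, so the listed positions overlapped 12.1 times as often. An H3K27me3 peak was overlapped by 772 OLIG2 peaks, 10.5% (9.77 to 11.2), against a shifted mean of 85.6 (range 64 to 114), a ratio of 9.02. Both counts lay above the highest shift, and the marks covered near-equal lengths of the genome, 21.3 Mb for H3K4me3 and 21.8 Mb for H3K27me3. Shifted lists differ from OLIG2 sites in base composition and in closeness to genes, which the shifts do not hold fixed.

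Both marks at the same site were found at 137 peaks, 1.86% (1.56 to 2.19), against a shifted mean of 4.38 (range 0 to 9). H3K4me3 alone was found at 792 peaks (10.7%) and H3K27me3 alone at 635 (8.60%). The remaining 5820 peaks, 78.8% (77.9 to 79.7), overlapped neither mark, compared with 7226 on average after shifting. Most OPC OLIG2 sites thus lay outside the listed peaks of both marks.

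Peaks with and without an A or T run differed more in their overlap with H3K27me3 than in that with H3K4me3. Of the 5815 peaks with a run, 799 (13.7%, 12.9 to 14.7) overlapped H3K4me3 and 731 (12.6%, 11.7 to 13.5) overlapped H3K27me3. Of the 1569 peaks without a run, 130 (8.29%, 6.97 to 9.76) overlapped H3K4me3, 8.0 times the shifted mean (6.73 to 9.42). Only 41 of them (2.61%, 1.88 to 3.53) overlapped H3K27me3, 2.26 times the shifted mean (1.63 to 3.05). The shifted windows of run-free peaks were not themselves chosen to lack runs, here or below, so these ratios are not like for like. Without a run, 5 peaks (0.319%) lay on both marks and 1403 (89.4%, 87.8 to 90.9) on neither. The intervals of the peaks with and without a run did not meet for any of these shares.

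**Figure D2:**
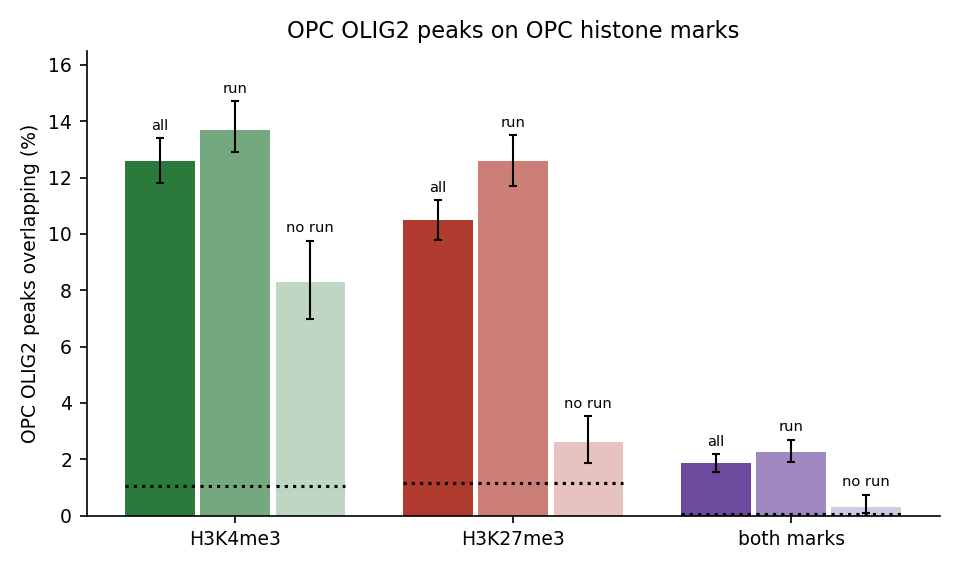
Share of OPC OLIG2 peaks (percent, with 95% binomial interval) that overlapped H3K4me3, H3K27me3 or both, for all 7384 peaks, the 5815 with an A or T run and the 1569 without, with dotted lines at the mean over all circular shifts. The H3K27me3 bar falls from 12.6% with a run to 2.61% without, and the H3K4me3 bar from 13.7% to 8.29%.

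The overlap with H3K4me3 was tied to position near the site, as the plot of overlap by shift length shows. With all peaks moved by a fixed distance to either side, the H3K4me3 share went from 12.6% at 0 kb to 9.56% at 0.25 kb, 5.56% at 1 kb and 1.98% at 5 kb. The H3K27me3 share went from 10.5% at 0 kb to 5.40% at 0.25 kb and 2.53% at 1 kb. Peaks with a run lost most H3K27me3 overlap within 0.25 kb, from 12.6% to 6.2%, and were at 2.04% at 1 kb. Peaks without a run showed the reverse order for H3K27me3: the share was 2.61% at 0 kb, 2.90% at 0.5 kb, 4.33% at 1 kb and 5.58% at 2 kb, then 3.09% at 10 kb and 1.53% at 100 kb. At 2 kb it was 4.91% on one side and 6.25% on the other. These peaks thus overlapped H3K27me3 less often at the listed position than 2 kb away. For H3K4me3 the same peaks fell with distance, from 8.29% at 0 kb to 4.02% at 1 kb and 1.59% at 5 kb.

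**Figure D3:**
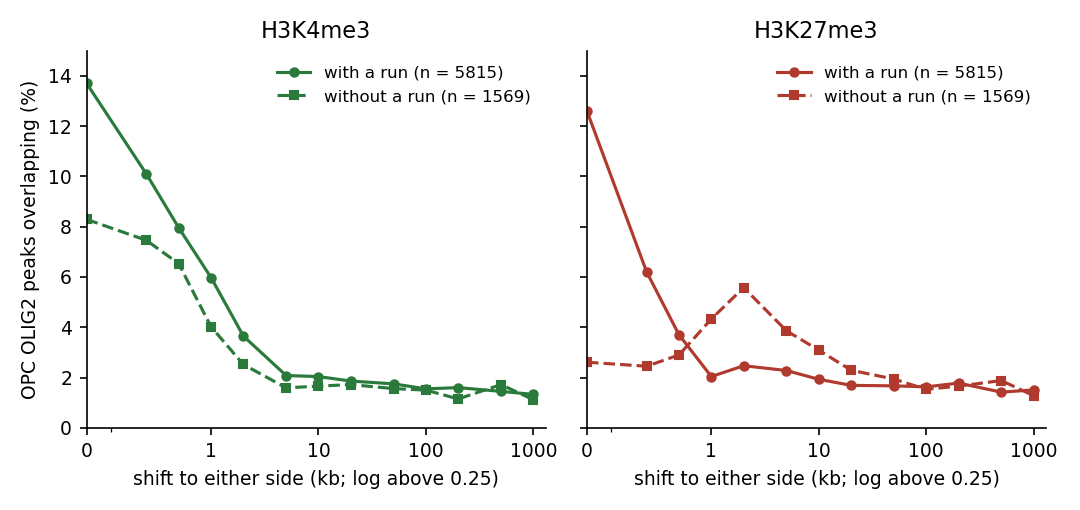
Share of OPC OLIG2 peaks (percent) overlapping H3K4me3 or H3K27me3 after a fixed shift of the list, against the shift in kb on a symmetric log axis, for peaks with and without an A or T run. The H3K27me3 line of the peaks with a run drops from 12.6% to 2.04% within 1 kb, while that of the peaks without a run rises from 2.61% to 5.58% at 2 kb. Peaks were sorted by run at 0 kb, and moved windows of the peaks without a run may hold one.

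The median distance of an OLIG2 peak to the nearest H3K4me3 peak was 27.5 kb (95% CI 26.2 to 29.0), against 67.5 kb on average after shifting (54.7 to 74.2). To the nearest H3K27me3 peak it was 39.3 kb (37.3 to 41.3), against 70.2 kb (54.8 to 76.7). Both medians lay under the lowest value over the shifts. Without a run the median distance to H3K4me3 was 37.2 kb (32.8 to 40.6) and that to H3K27me3 41.2 kb (37.0 to 47.0).

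H3K4me3 overlap was mostly a property of promoter sites. Of the 998 OLIG2 peaks within 1 kb of a TSS, 61.6% overlapped H3K4me3 and 9.42% H3K27me3, and 349 (35%) overlapped neither. At 1 to 5 kb the H3K4me3 share was 10.5%, at 5 to 20 kb 3.08%, and beyond 100 kb 2.20%. The H3K27me3 share ran from 13.5% at 1 to 5 kb to 11.5% at 5 to 20 kb, 9.57% at 20 to 100 kb and 5.22% beyond. Near promoters the H3K4me3 share was 63.7% with a run and 53.2% (46.1 to 60.3) without, so promoter sites kept it, and the H3K27me3 share was 11.0% with a run and 2.99% (1.10 to 6.38) without. More than 1 kb from a TSS, H3K4me3 was overlapped by 5.80% of peaks with a run and 1.68% of those without.

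The classes of site differed in location and sequence. Sites on H3K4me3 alone lay a median of 0.467 kb from a TSS, and 70.1% were within 1 kb of one. Of those 555 promoter sites, 305 lay upstream and 250 downstream, and 51.4% within 250 bp. Sites on both marks lay a median of 1.5 kb from a TSS, those on H3K27me3 alone 11.1 kb and those on neither mark 15 kb. The latter classes were intronic or intergenic: 42.7% and 50.7% of the sites on H3K27me3 alone, and 49.2% and 41.5% of the sites on neither mark. Median GC content was 48.7% on H3K4me3 alone, 48.3% on both, 43.9% on H3K27me3 alone and 42.2% on neither, with 43.7% to 45.9% in the same windows moved by 10 kb. A run of A or T of 12 or more stood in 71.0%, 83.9%, 83.3% and 64.9% of the peaks of these classes in the same order.

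The strongest OLIG2 peaks lay on H3K4me3 more often. Fold enrichment, the ratio of ChIP to input signal in the peak list, had a median of 8.03 over all peaks (range 2.04 to 167), of 10.5 on H3K4me3 alone, 9.38 on both, 7.85 on H3K27me3 alone and 7.83 on neither. From the peaks of fold enrichment up to 5 to those of 20 to 40, the share on H3K4me3 went from 6.85% to 42.4%, and it was 34.1% of the 44 peaks above 40. The share within 1 kb of a TSS, which was not held fixed, went from 9.05% to 30.9% over the same groups and was 29.5% above 40. The share on H3K27me3 was 12.7% in the lowest group and 11.5% at 20 to 40, with 9.91% the lowest share and 15.9%, above 40, the highest. Without a run, the H3K4me3 share went from 4.59% up to a fold enrichment of 5 to 22.4% of 49 peaks above 20. The H3K27me3 share of the same groups, in order, was 4.59% (5 of 109 peaks), 2.25%, 3.09% and 2.04% (1 of 49 peaks, 0.0517 to 10.9), with no clear trend.

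**Figure D4:**
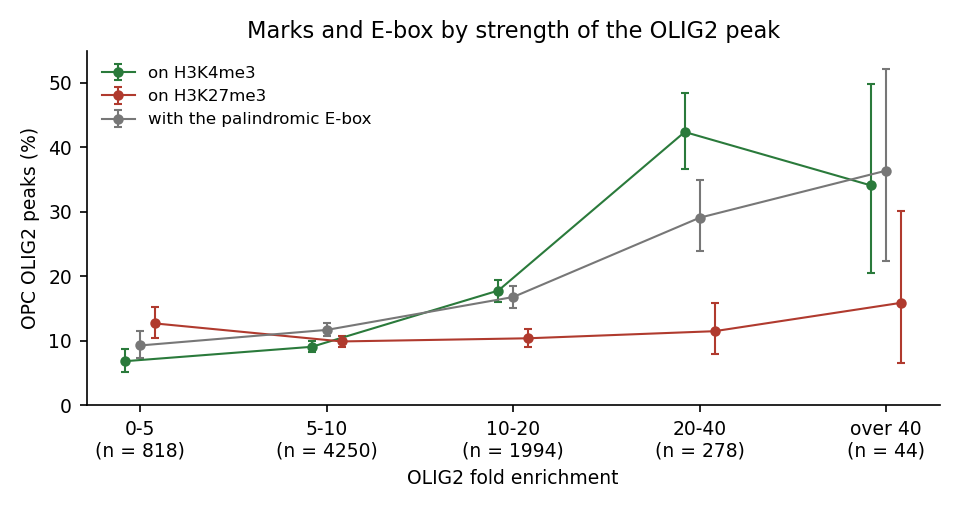
Share of OPC OLIG2 peaks (percent, with 95% binomial interval) on H3K4me3, on H3K27me3 and holding the palindromic E-box CAGCTG, by group of OLIG2 fold enrichment. The H3K4me3 share climbs from 6.85% to 42.4% at a fold enrichment of 20 to 40 and the E-box share from 9.29% to 36.4% above 40, while the H3K27me3 share stays between 9.91% and 15.9%.

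E-boxes were counted on both strands. Any CANNTG, which the windows hold often by length alone, was found in 70.4% of peaks and 70.8% of windows moved by 10 kb. The palindrome CAGCTG was found in 13.6% of peaks against 9.52% of moved windows, and CAGATG with its reverse complement CATCTG in 18.9% against 16.1%. Without an A or T run CAGCTG stood in 19.4% of peaks (17.4 to 21.4) against 9.72% of moved windows, in 26.4% of the run-free sites on H3K4me3 alone against 10.8%, in 19.0% of those on neither mark against 9.59%, and in 11.1% of the 36 on H3K27me3 alone against 12.5%. By class CAGCTG stood in 15.8% of the sites on H3K4me3 alone, 19.0% on both marks, 15.6% on H3K27me3 alone and 13.0% on neither, against 8.40% to 10.9% of their moved windows. The CAGCTG share of all peaks was 9.29% at a fold enrichment up to 5 and 29.1% at 20 to 40. Above 40 it was 36.4% (22.4 to 52.2) of 44 peaks. Without a run it was 15.6% up to 5 and 49.0% (34.4 to 63.7) of 49 peaks above 20, a lower threshold for the top group. A match describes the letters of the window and no more.

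Of the 772 sites on H3K27me3, 634 (82.1%, 79.2 to 84.8) lay in a peak under 1 kb, and 85.1% of all H3K27me3 peaks were under 1 kb. A moved list hits wide peaks more readily, so the shifted lists are the closer reference. They hit on average 23.2 peaks under 500 bp and 21.3 of 500 to 1000 bp, of 84.0 in all. The listed sites hit 402 and 223, of 761 in all, and so lay in narrow peaks more often. For both marks the share of peaks that held an OLIG2 site was higher at 2 kb or more than under 500 bp. For H3K27me3 the share was 2.32% under 500 bp and 8.41% at 8 kb or more. Its ratio to the shifted lists fell with width, from 17.3 to 2.25. For H3K4me3 the share was 3.13% under 500 bp and 17.6% (13.2 to 22.9) of 255 peaks at 4 to 8 kb. The H3K4me3 ratio was 24.0 under 500 bp, then 10.1 at 500 to 1000 bp, 10.5 at 1 to 2 kb, 11.7 at 2 to 4 kb and 11.4 at 4 to 8 kb. It thus showed no steady fall from 500 bp to 8 kb. At 8 kb or more, 2 of 17 H3K4me3 peaks held a site (11.8%, 1.46 to 36.4), a ratio of 4.21. In H3K4me3 peaks of 1 kb or more the OLIG2 centre lay a median of 66.6% of the way from the centre of the mark to its edge.

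The peak of highest fold enrichment, 167, lay at the promoter of Atg2a, an autophagy gene, in an H3K4me3 peak of 1790 bp, and an NFO OLIG2 peak lay at the same site. It was followed on H3K4me3 alone by Ppp1r10 (109), Limch1 (81.7), Dnlz (77.6) and Hapln1 (70.2), and all of these had an A or T run and an H3K4me3 peak in NSCs. On both marks the strongest was Gad1 at 62.7, in a 258-bp H3K4me3 peak and a 781-bp H3K27me3 peak that begin at the same base. At the Axin2 site (32.5), an intergenic site upstream of a gene for a Wnt pathway inhibitor, the H3K4me3 peak of 185 bp and the H3K27me3 peak of 181 bp ended at the same base. In 22 of the 137 sites on both marks, both histone peaks were under 500 bp. Foxd3 had a site of 46.0 in a 3168-bp H3K27me3 peak and a 325-bp H3K4me3 peak, Gm44107 one of 35.1, and Adra2c, an adrenergic receptor gene, one of 34.1 in a 1312-bp H3K27me3 peak and a 320-bp H3K4me3 peak.

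On H3K27me3 alone the strongest site was 4932438H23Rik at 56.3, in a 298-bp H3K27me3 peak, followed by Gm31314 (47.2), Gm48623 (41.8), Map2k6 (41.1) and Gm28723 (40.4). Map2k6, a kinase gene of the p38 pathway, was the exception in width, with its promoter site in a 7180-bp H3K27me3 peak. On neither mark the strongest were Gm16155 (112), A330048O09Rik (90.9), Wwp2 (85.5), Ccser2 (81.7) and Qrfp (79.5). Of these 20 named sites only Wwp2 had no A or T run. Without a run, and chosen after their values were seen, the strongest on H3K4me3 alone were Lsamp (42.4) and Mycn (31.5), the gene of the N-Myc transcription factor, and on H3K27me3 alone Tead1 (16.0) and Rpap3 (14.4).

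Olig2 itself had a site of fold enrichment 12.6 without an A or T run at chr16:91228282-91228511, in an exon 2940 bp from the TSS, within an H3K4me3 peak of 8705 bp, the widest with an OLIG2 site. The next were 2610316D01Rik (20.2, in 8005 bp) and Tnrc18 (11.5, in 7744 bp). The widest H3K27me3 peaks with a site were those at Hoxc9 (11.8, in 35528 bp), Hoxb3 (6.22, in 24439 bp) and Tbx3 (5.19, in 23950 bp), body-patterning transcription factor genes. All these H3K27me3 sites also lay in an H3K4me3 peak of 478, 182 and 226 bp, and all had a run.

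Target genes were the 4527 of 35312 annotated genes (12.8%) with an OLIG2 peak in the gene body or up to 5 kb upstream, 3619 protein-coding and 908 lncRNA, against a mean of 3172 after shifting (2975 to 3529). A gene was K4 only, K27 only, bivalent, mixed or without mark by the OPC peaks within 2 kb of its TSS. A bivalent domain was an H3K4me3 and an H3K27me3 peak that overlapped, and a bivalent gene had such a domain and no other mark peak. K4 only described 2670 targets (59.0%, 57.5 to 60.4), against 36.4% of all genes and 49.2% of shifted targets (47.2 to 51.1). No mark was found at 1112 (24.6%), against 51.5% of all genes and 35.2% of shifted targets (33.2 to 36.6). By number, K4 only targets were 1.71 times the shifted mean of 1561 and above its highest value of 1795, while unmarked targets were as many as after shifting, at a mean of 1118 (1028 to 1253). The lower share of unmarked genes thus stood beside a larger number of marked targets.

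The other marked states were also hit more often than by the shifted lists, though their shares of the targets were close to the shifted shares. Bivalent targets numbered 232, against a shifted mean of 146 (121 to 183), and were 5.12% of targets, against 2.99% of all genes and 4.59% of shifted targets (3.79 to 5.54). K27 only targets numbered 193, against 133 (110 to 163), and were 4.26%, against 4.91% of all genes and 4.19% of shifted targets (3.57 to 4.98). Mixed targets numbered 320, against 215 (184 to 257), and were 7.07%, against 4.17% of all genes and 6.78% of shifted targets. All these counts lay above the highest shift. Read by state, 20.8% of K4 only genes, 22.0% of bivalent genes, 11.1% of K27 only genes and 6.11% of unmarked genes were targets, against 12.1%, 13.8%, 7.67% and 6.14% after shifting. Moving the list keeps the tendency of long genes to be hit, which the share over all genes does not.

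The targets of the peaks without a run were close to all targets in their states. The peaks without a run had 1086 target genes, 59.7% K4 only (shifted 50.5%), 22.1% without mark (33.1%), 5.16% bivalent (4.82%), 5.06% K27 only (3.96%) and 8.01% mixed (7.66%). Among the 1200 genes with a peak within 2 kb of the TSS on either side, 67.9% were K4 only, 6.00% bivalent and 16.1% without mark, and among the 3344 targets with no peak so near these were 55.8%, 4.78% and 27.6%.

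**Figure D5:**
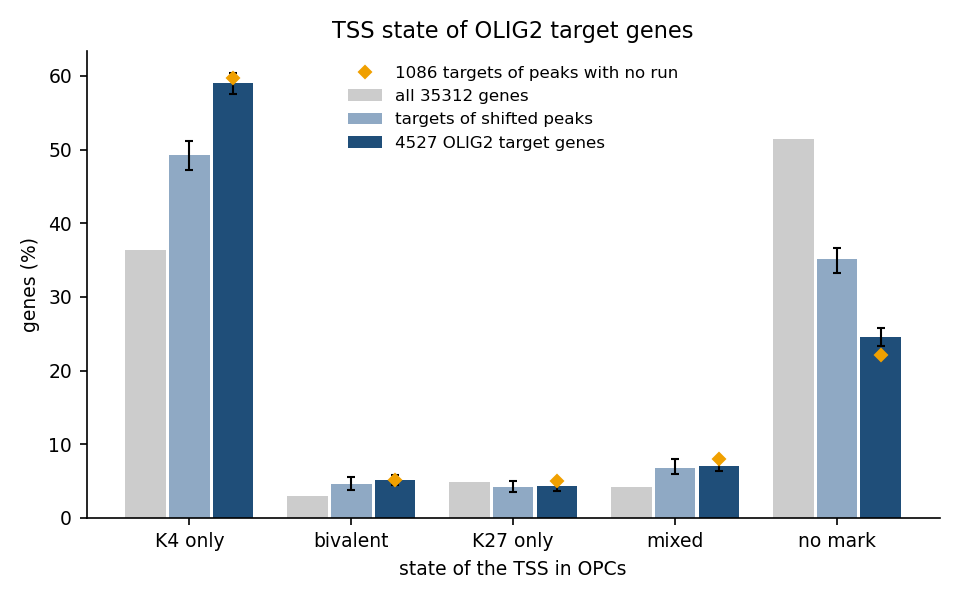
TSS state of genes (percent of genes) for all 35312 genes, for targets of the shifted OLIG2 list (mean, lowest and highest), for the 4527 OLIG2 targets with 95% binomial interval and, as diamonds, for the 1086 targets of peaks without an A or T run. K4 only stands at 59.0% of targets against 49.2% shifted, and no mark at 24.6% against 35.2%, with 1112 unmarked targets against a shifted mean of 1118.

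The mark under a site near a TSS is often the peak that sets the state of that TSS, so the states by class are not independent of it. Sites on H3K4me3 alone had 959 target genes, of which 84.5% were K4 only, with 71.6% (64.8 to 77.9) of the 194 target genes of such sites more than 1 kb from a TSS, and sites on both marks had 126, of which 53.2% were bivalent. Sites on H3K27me3 alone had 413 target genes, of which 27.6% were K4 only, 17.2% K27 only and 10.9% bivalent. Sites on neither mark had 3372, of which 57.4% were K4 only, near the 59.0% of all targets.

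Gene lists of the lineage differed in their share of targets, set against 12.8% of all genes. Of protein-coding genes, 22.4% of those K4 only and 7.19% of those without mark were targets, a closer reference for these lists. Gene length, which raises the share, was not held fixed. Of 16 OPC identity genes 11 (68.8%) were targets, and 15 were K4 only. The NG2 proteoglycan gene Cspg4 had the highest fold enrichment among them, 25.6, in an intron 16180 bp from the TSS and off both marks. Megf11 had 4 sites, the strongest (16.8) on H3K27me3 alone with a run. Cspg5 (9.15) and Lhfpl3 (8.56) had sites without a run, and the extracellular matrix gene Tnr had 8.19. Of these 11 genes 5 had a site without a run.

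Of 36 regulators of oligodendrocyte differentiation, 14 (38.9%) were targets and 32 were K4 only. Zfp536, a zinc finger gene, had 22.9 on an H3K4me3 peak 148525 bp inside the gene. Hes1, a repressor downstream of Notch, had 15.4 on an H3K27me3 peak less than 5 kb upstream, while its TSS was K4 only. The SoxE gene Sox8 had 14.8 on H3K4me3 and the inhibitory Smad gene Smad7 13.8 on neither. Olig1, Nkx2-2, Yy1, Gpr17, Sox10 and Zfp488, lineage genes the study names, were K4 only and had no listed OLIG2 peak in the gene or 5 kb upstream. The lncRNA genes Mir99ahg and Pantr1, which it also names, did have one. Mir99ahg had 3 sites up to 22.5 and no mark at its TSS, and Pantr1 had 1 site of 5.97. The TSS of Pantr1 was classed as bivalent through an H3K4me3 peak of 13533 bp, with no H3K27me3 peak within 2 kb.

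Of 19 myelin protein genes 4 (21.1%) were targets, 8 were K4 only and 10 had no mark. Enpp2, which encodes autotaxin, had a site of 15.7 on a 275-bp H3K4me3 peak at its TSS. Ugt8a, of galactocerebroside synthesis, had 11.0, Pllp 6.17 without a run and Mog 5.99, all off both marks. Of 30 Notch and BMP genes 12 (40%) were targets: Notch1 had 24.9 on H3K4me3 within the gene, Bmp4 14.0 on both marks with a K27 only TSS, and Smad1 4 sites without a run, up to 12.2. Of 28 Polycomb and H3K4 methylation enzymes 7 (25%) were targets. Among these were Cbx7 (20.0, no run), a Polycomb complex 1 subunit, the H3K27 demethylase gene Kdm6b (13.8), Jarid2 (12, no run), which joins Polycomb complex 2, the H3K4 methyltransferase gene Setd1b (11.3, on H3K4me3) and the H3K4 demethylase gene Kdm5b (11.1).

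Of 48 patterning transcription factors of other lineages 4 (8.33%) were targets, against 12.8% of all genes. Of the 48, 30 were bivalent, 7 K27 only and 11 mixed, and none was K4 only. Among all protein-coding genes in these states 26.0%, 13.1% and 24.0% were targets, so the share of this list was lower. The list is small and gene length was not held fixed. Pax7 (7.39) had its site on neither mark, and Irx5 (5.55), Tbx3 (5.19) and Pax3 (3.66) had theirs on both. All had a run.

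Markers of cells removed before panning were mostly without H3K4me3. Of 14 microglial genes 13 had no mark at the TSS and 1 was K4 only, and of 10 endothelial genes 5 had no mark, 3 were K27 only and 2 mixed. Astrocyte genes were K4 only in 6 of 14 cases and neuronal genes in 7 of 15. Microglial targets were 3 of 14, among them Itgam at 8.49 and Cx3cr1 at 4.43, and endothelial targets 2 of 10, with Cdh5 at 11.8 and Flt1 at 9.58. The strongest site of each of these named genes lay off both marks and had a run. Of 14 astrocyte genes 4 were targets, led by Sox9, a transcription factor shared with glial precursors, at 36.0 on H3K4me3 with a bivalent TSS, and then Slc1a2 (22.9), Nfib (9.46) and Aqp4 (9.0) on neither mark. Of 15 neuronal genes 3 were targets: Gad1, Elavl4 (10.5) and Rbfox3 (9.77). The share of chromatin from other cells was not tested.

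Most OPC OLIG2 sites on H3K4me3 were also marked at the other stages, though how many of all OPC H3K4me3 peaks were so marked was not computed. Of the sites on H3K4me3 alone in OPCs, 94.4% overlapped H3K4me3 in NSCs and 86.7% in NFOs, and 32.1% were shared with an NFO OLIG2 peak. With and without a run the NFO H3K4me3 share of these sites was 92.4% and 56.8% (47.6 to 65.6), and the NFO OLIG2 share 35.4% and 14.4% (8.76 to 21.8). Of the sites on H3K27me3 alone, 39.5% overlapped H3K27me3 in NSCs and 19.5% in NFOs, and 15% were shared with NFO OLIG2. For the 87 of these sites in H3K27me3 peaks of 1 kb or more, the NSC and NFO mark shares were 54.0% (43.0 to 64.8) and 59.8% (48.7 to 70.1). For the 548 in peaks under 1 kb they were 37.2% and 13.1%. With a run the shares were 40.6% and 19.0%, and without a run 22.2% (8 of 36 sites) and 27.8% (10 of 36). Of the sites on neither mark 11.4% were shared with NFO OLIG2. Sharing with NFO OLIG2 was 16.9% for the peaks with a run and 4.84% for those without.

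Over all 7384 peaks, 21.6% overlapped H3K4me3 in NSCs, 15.2% H3K27me3 in NSCs, 13.6% H3K4me3 in NFOs and 2.65% H3K27me3 in NFOs. With and without a run these shares were 24.4% and 11.2%, 18.6% and 2.49%, 15.8% and 5.48%, and 3.10% and 1.02%. The difference by run was thus found against the marks of every stage. In NFOs, the matching comparison of NFO OLIG2 peaks gave 8.23% on H3K4me3, 13.9 times the shifted mean, and 2.44% on H3K27me3, 3.53 times. NFO peaks without a run gave 3.31% (2.71 to 4.01) on H3K4me3 and 1.25% (0.884 to 1.71) on H3K27me3, 5.60 and 1.80 times their shifted means.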

How the data were processed

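ChIP-Seq of OLIG2, H3K4me3 and H3K27me3 was analysed from the peak lists that the authors deposited, 1 library for each target. Per the submitters' processing notes and the study's methods, reads were aligned to mm10 (GRCm38) with Bowtie2, OLIG2 peaks were called with SPP and histone peaks as broad peaks with MACS2, each against input, and blacklisted regions were left out. The deposited values used were the fold enrichment (a ratio of ChIP to input signal) and the −log10 q-value or p-value of each peak. No reads, inputs or RNA data were used.

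Overlap, distance and TSS states were computed in Python 3.11.15 with NumPy 2.4.6, pandas 2.3.3 and SciPy 1.17.1, with GENCODE M21 genes (21938 protein-coding, 13374 lncRNA), and sequences were read with pysam 0.24.0 from the RefSeq copy of GRCm38. The mean over circular shifts was computed exactly over all shifts with assembly gaps removed, and ranges come from 99 evenly spaced shifts. These are descriptions and give no p. Intervals are at 95%, exact binomial for shares and from the ranked values for medians. They treat peaks as independent, which neighbouring peaks may not be. The code was tested on simulated data.

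Named were the 5 sites of highest fold enrichment in each mark class, 9 of the genes the study names, up to 5 target genes of each gene list by fold enrichment, and the sites in the 3 widest peaks of each mark. The values of 1 listed gene that the rule would name are not reported here. The sites, lists and tests were chosen with earlier results of these data known, and the A or T run after the sequences were seen. Alternatives included the stricter filter of the study's methods (false discovery rate 0.05 and fold enrichment above 5 for OLIG2 and 3.5 for the marks).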

Additional observations from a re-analysis of the deposited data

How the results depend on the processing

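The values given in the report are for 1 setting each, and 109 values were recomputed under alternatives, of which 57 stayed within 1.5 times (counts) or the counting interval (other values) and 52 moved. No ratio for H3K4me3 or H3K27me3 fell below 1. The order by distance for H3K27me3 turned without a run (2.61% at the site, 5.58% at 2 kb, where the windows may hold a run). The K27 only share of targets was 3.65% against 3.8% shifted for protein-coding genes, where it was 4.26% against 4.19% for all genes. It lay under the 4.91% of all genes, and above it (5.06%) without a run. Leaving out peaks lowers counts by construction, and for other moves the cause was not tested. Without peaks beside an A or T run, chosen after seeing the data, 41 sites lay on H3K27me3, 130 on H3K4me3, 5 on both and 1403 on neither, the ratios to the shifts were 2.26 and 8.0, the median distance to H3K4me3 was 37.2 kb, and the targets were 648 K4 only, 56 bivalent, 55 K27 only, 87 mixed and 240 without mark. With H3K27me3 peaks of at least 1 kb, 138 sites lay on H3K27me3 and 51 on both, the median distance was 349 kb, the ratio 3.45, and the targets were 56 K27 only, 114 bivalent and 78 mixed. With the filter of the study's methods 507 sites lay on H3K27me3, at a median distance of 69.3 kb.

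With OLIG2 fold enrichment above 10, 487 sites lay on H3K4me3 (ratio 20.1), 247 on H3K27me3, 62 on both and 1644 on neither, the median distances were 19.2 kb and 33.0 kb, and the targets were 1119 K4 only, 76 bivalent, 67 K27 only, 120 mixed and 357 without mark. With histone fold enrichment above 5, 348 sites lay on H3K27me3 and 66 on both, the median distances were 41.4 kb to H3K4me3 and 149 kb to H3K27me3, the ratios 13.3 and 11.2, and the targets 120 bivalent and 76 mixed. The ratios for H3K4me3 and H3K27me3 were 14.1 and 11.2 with most of the OLIG2 peak covered, 14.0 and 11.1 by its midpoint, 5.74 and 3.86 within 1 kb of the mark, and 7.36 and 5.86 against fixed shifts of 10 to 100 kb. Mixed targets were 121 with 1 kb around the TSS and 578 with the TSS of any transcript, and 592 protein-coding targets had no mark. No paired analysis was possible because each list comes from 1 library, and no replicate could be left out. Depth is unknown, so a site off a mark is a site off a listed peak, and a weak mark there was not detectable.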

Other observations

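OPC OLIG2 sites were sparse on the X chromosome. There were 123 peaks on it, 0.752 per Mb, against 3.03 per Mb on the autosomes, whose lowest had 2.37 and highest 4.06, a ratio of 0.248. The ratio was 0.327 for NFO OLIG2, 0.496 for annotated genes, 0.571 for OPC H3K4me3, 0.853 for OPC H3K27me3, 1.36 for NFO H3K4me3 and 1.64 for NSC H3K27me3. The animals were of both sexes, and the cause was not tested.

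A group of 349 OLIG2 sites lay within 1 kb of a TSS and on neither mark. The nearest gene was protein-coding for 76.8% (72.0 to 81.1) of them, had K4 only at its own 5′ end for 50.4% and no mark for 38.7%. Of the 555 promoter sites on H3K4me3 alone the gene was protein-coding for 88.3% and K4 only for 90.1%. Median fold enrichment was 8.18 (7.56 to 8.92) in the unmarked group and 10.6 (10.1 to 11.5) in the marked.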
